A study of Mus musculus with 159 samples.

Results

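MARCO+ and MARCO- macrophage segments were compared within fibrotic mouse livers. A segment is the part of a region of interest (ROI) that a fluorescence gate selects, and the 4 gates were MARCO+ (IBA1-positive, MARCO-positive, DESMIN-negative), MARCO- (IBA1-positive, negative for MARCO and DESMIN), HSC (DESMIN-positive only) and Other (negative for all). Members were chosen by the gate in the sample labels, with no measured value used, which gave 45 MARCO+ and 24 MARCO- segments, together 69 of 159 segments. All 4 livers came from C57BL/6 wild-type mice that were 8 weeks old at the start and received carbon tetrachloride (CCl4), a hepatotoxin that causes fibrosis, for 6 weeks. Livers 1 and 3 are labelled treated CCl4 and livers 2 and 4 control, although the study's methods give CCl4 to every animal. In the methods some of these mice also received MARCO+ bone marrow-derived macrophages (BMDMs) and the others saline, and the labels do not tie either to a liver. The sex of a liver was not labelled. ROIs were picked by hand as MARCOHi or MARCOLo by their MARCO staining. MARCO- segments of livers 1, 3 and 4 were present in both ROI classes, and those of liver 2 in MARCOLo ROIs alone.

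MARCO is a class A scavenger receptor of macrophages that binds bacteria, modified lipoproteins and particles. In the liver, resident macrophages (Kupffer cells) line the sinusoids, clear blood-borne material and make plasma pattern recognition proteins, while recruited macrophages enter in injury. IBA1 is shared by both and so does not tell them apart.

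The 2 genes that differed most between the segment types were Marco and Fcna, which encodes ficolin A, a lectin made by macrophages that starts complement activation. Their promoter windows (RefSeq, GRCm38.p6, minus strand, 300 bases around the start of transcription) are shown because both genes were higher in MARCO+ segments under every setting tried. Capitals mark GAGGAA, the purine-rich core bound by PU.1, a transcription factor of macrophages, searched on both strands.
Marco, chr1:120504975-120505274: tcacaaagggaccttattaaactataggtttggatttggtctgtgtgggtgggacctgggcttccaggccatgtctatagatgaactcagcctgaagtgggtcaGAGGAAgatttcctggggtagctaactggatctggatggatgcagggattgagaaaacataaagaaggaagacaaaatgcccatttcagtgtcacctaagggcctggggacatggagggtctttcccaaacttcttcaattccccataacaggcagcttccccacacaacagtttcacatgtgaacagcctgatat
Fcna, chr2:25627925-25628224: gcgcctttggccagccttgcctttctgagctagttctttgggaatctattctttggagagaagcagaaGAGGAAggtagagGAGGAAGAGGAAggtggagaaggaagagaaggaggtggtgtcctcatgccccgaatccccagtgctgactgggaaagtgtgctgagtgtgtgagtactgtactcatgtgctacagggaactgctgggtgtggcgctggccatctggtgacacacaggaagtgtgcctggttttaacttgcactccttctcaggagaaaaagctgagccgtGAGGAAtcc
The Marco window held 1 match and the Fcna window 4, all on the strand printed. A match was present in 28.3% of all 32851 windows of this length and in 8 of 31 windows of the genes higher in MARCO+ segments (25.8%), so the motif was no more frequent among them.

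MARCO- segments were shallow, and this set what could be read from them. Recovered counts over 607 genes ranged from 1065 to 4457 in MARCO- segments (median 1639.5) and from 3106 to 27341 in MARCO+ segments (median 8408). No value was 0, and the lowest count in both types was 1. Since every segment was scaled to the same upper quartile, 1 count was worth a median of 8.69 normalized units in MARCO- segments (2.90 to 13.0) and 1.68 in MARCO+ segments (0.543 to 4.35). A median of 47.4% of genes stood at 1 count in a MARCO- segment (12.7% to 67.2%) against 3.29% in a MARCO+ segment (0% to 23.6%). A gene at 1 count in MARCO- segments thus has an upper bound there rather than a level. The median MARCO- count was 1 for 262 genes and 3 or more for 187 genes, whereas 603 genes reached a median of 3 in MARCO+ segments. The standard errors given are limma's moderated ones, 0.20 to 0.24 on the log2 scale, in which variance shared across genes (66.8 prior degrees of freedom) outweighs the spread of a gene's own 4 livers (3 degrees of freedom). That spread itself differed widely, with an SD over livers of 0.19 for Fcna, 0.73 for Bsg, 0.84 for Ndufa2 and 0.98 for Marco, so an adjusted p of a gene with a large SD rests on the other genes. In segments of tissue, fewer cells of a type and less RNA per cell cannot be told apart.

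Marco itself was read as a check of the labels, because its protein defined the gate. In MARCO- segments of MARCOHi ROIs the mean Q3-normalized value of Marco was 34.8, 128.6 and 17.4 for livers 1, 3 and 4, and in those of MARCOLo ROIs it was 13.1, 13.0, 16.7 and 20.9 for livers 1 to 4. In MARCO+ segments of the same pairs it was 1144, 1382 and 284.3 for MARCOHi ROIs and 373.1, 94.6, 533.7 and 94.4 for MARCOLo ROIs. MARCO+ stood higher within each of the 7 pairs, while across livers the MARCO- mean of liver 3 MARCOHi ROIs exceeded the MARCO+ means of liver 2 and liver 4 MARCOLo ROIs. The log2 difference was 4.86, 2.77, 4.16 and 3.04 for livers 1 to 4, with a mean of 3.71 ± 0.98 (SD, n = 4), or 13.1-fold. Flipping the signs of the 4 livers' differences in every way (an exact permutation test, two-sided) gave p = 0.125, the smallest this design allows. In all 22 ROIs that held both types, Marco was higher in the MARCO+ segment. Of 24 MARCO- segments, 7 had a single Marco count and the median was 2 counts. One MARCO- segment of a liver 3 MARCOHi ROI held 37 Marco counts (482.4 normalized units, of 1199 counts in all), inside the MARCO+ range of 48.4 to 1833. Without it the mean difference was 3.92.

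**Figure D1:**
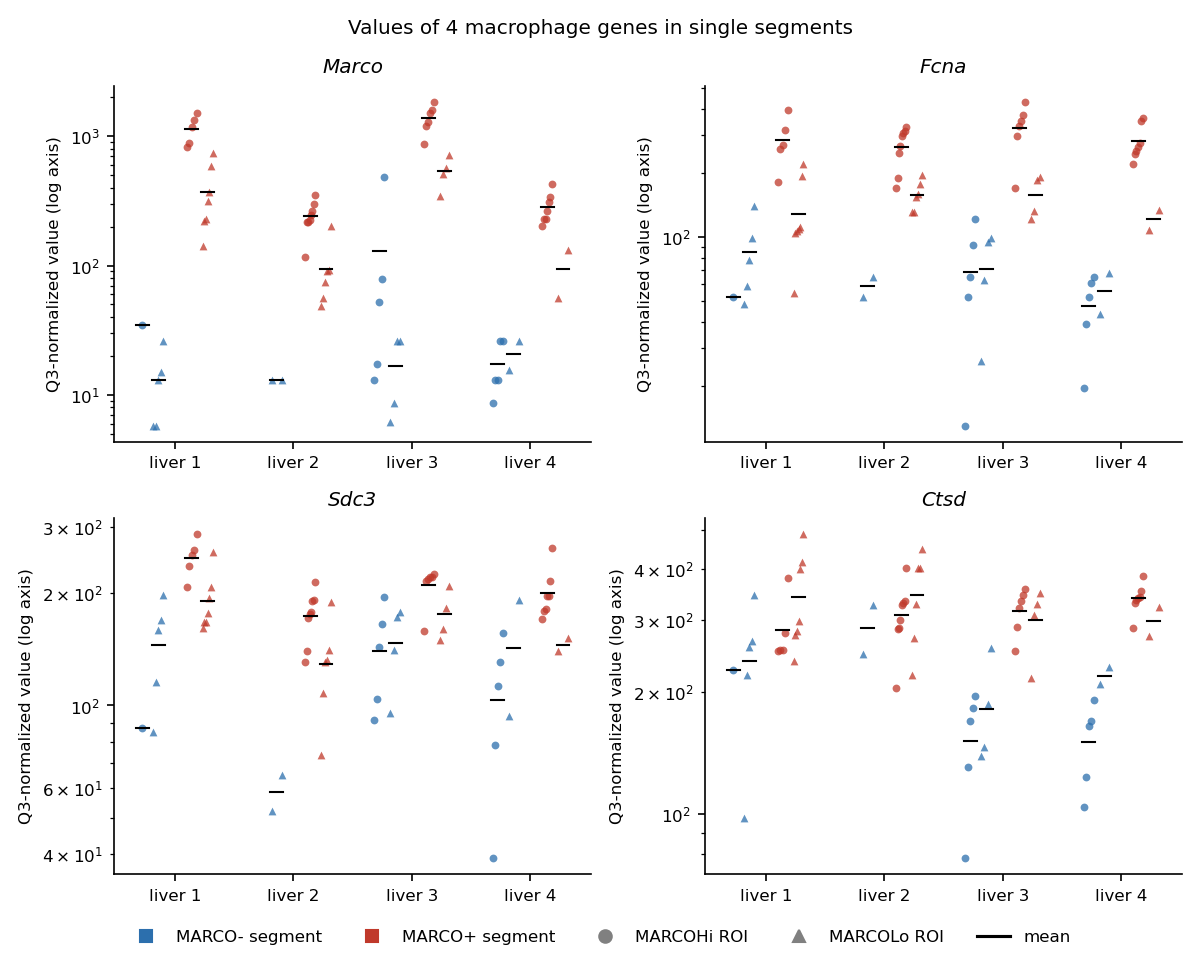
Q3-normalized values (log axis) of Marco, Fcna, Sdc3 and Ctsd in every MARCO- (blue) and MARCO+ (red) segment, by liver and ROI class, with the mean of each group as a line. The MARCO+ means lie above the MARCO- means of the same liver and class for all 4 genes, with 1 MARCO- segment of liver 3 at 482.4 for Marco, and single segments of both types overlap for each gene.

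The macrophage identity of both types was checked with 9 of 64 listed macrophage and Kupffer cell genes that were measured. Marco is 1 of the 9, and its protein defined the gate, so its level is no check of MARCO+ segments. Its median was 308.3 units in MARCO+ and 15.3 in MARCO- segments, 7 of 24 of which stood at 1 count. The counts and sums below include Marco and were not made without it. IBA1 (Aif1) and the Kupffer cell genes Clec4f and Vsig4 were not analysed here. The mean level of MARCO- segments was above both HSC and Other segments for 9 of the 9 genes, against 266 of 607 genes overall (43.8%), and that of MARCO+ segments for 8 of the 9, against 129 of 607 (21.3%). All 607 genes had been restricted to those of stellate cells, which bears on these shares. Timp2, Plac8 and Cd63 stood at 1 count in 7, 7 and 4 of 24 MARCO- segments, where 1 count is worth more than in HSC segments. Their mean log2 levels were 4.61, 4.52 and 4.97 in MARCO- and 4.07, 4.38 and 4.66 in HSC segments. The summed normalized value of the 9 genes had a median of 610.6 in MARCO- segments (312.9 to 1147), 1248 in MARCO+ (797.1 to 3043), 234.7 in HSC (113.0 to 330.3) and 182.9 in Other segments (162.2 to 295.7). With Marco included, the median sum was thus higher in both gates than in the segments outside them, and the ranges of MARCO- and HSC segments overlapped only between 312.9 and 330.3. Markers of hepatocytes, cholangiocytes and other leukocytes were not analysed here, and the endothelial gene Plvap gave -0.15 and was not called.

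Across all genes, 204 of 607 (33.6%) passed adjusted p below 0.05 by limma between MARCO+ and MARCO- segments. Of these, 35 genes (5.77%) were higher in MARCO+ segments and 169 (27.8%) lower. The median difference over all genes was -0.21. The livers' MARCO+ and MARCO- levels did not overlap for 35 genes (5.77%) with MARCO+ above and for 122 genes (20.1%) with MARCO+ below. The upward and downward calls stood differently to the floor of 1 count. Of the 35 higher genes, 26 had a median of 3 or more counts in MARCO- segments. Of the 169 lower genes, 6 did, and 138 had a median of exactly 1 count there. Among the 187 genes with 3 or more counts, 13.9% were called higher and 3.21% lower, and their median difference was 0.14. Among the 262 genes at 1 count, the median difference was -0.52.

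**Figure D2:**
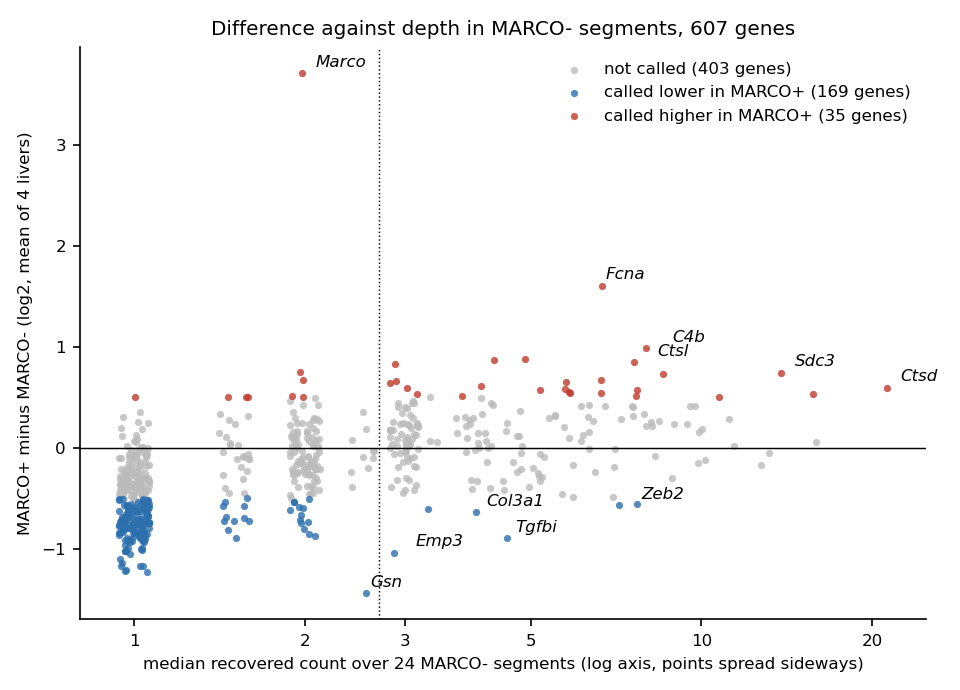
MARCO+ minus MARCO- log2 difference (mean of 4 livers) of 607 genes against the median recovered count over 24 MARCO- segments (log axis), with genes called lower in MARCO+ in blue, higher in red and not called in grey. Right of the dotted line, at 3 or more counts, 6 genes were called lower, against 138 at a count of 1.

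These counts moved with the setting. When every value below the highest 1-count step of a liver and ROI class was raised to that step (a common floor), 8 genes were called. Marco, Fcna, C4b, Ctsl and Ywhab were higher, and Gsn, Tgfbi and Emp3 lower. When 1 count was subtracted from every value, 162 genes were called higher and 0 lower by limma, with 285 genes at unadjusted p below 0.05 and the median of all genes moved from -0.21 to 1.10. Recovered counts summed per pair went to edgeR and DESeq2 with the 7 pairs as blocks, so livers 1, 3 and 4 entered once per ROI class. On these sums edgeR called 36 genes higher and 25 lower, of which 26 and 25 were shared with the calls above. DESeq2 called 30 higher and 1 lower (Tgfbi). Without the 8 MARCO- segments whose upper quartile was 2 counts, which also removed liver 2, 12 genes were called higher and 40 lower, of which 9 and 40 were shared with the calls above. Marco and Fcna were called higher under all 26 settings, the one reported included. The fit of MARCOHi ROIs alone (3 livers) gave 136 calls, 10 higher and 126 lower. That of MARCOLo ROIs alone gave 15 calls, 4 higher and 11 lower, and those without liver 3 or 4 gave 133 and 118.

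**Figure D3:**
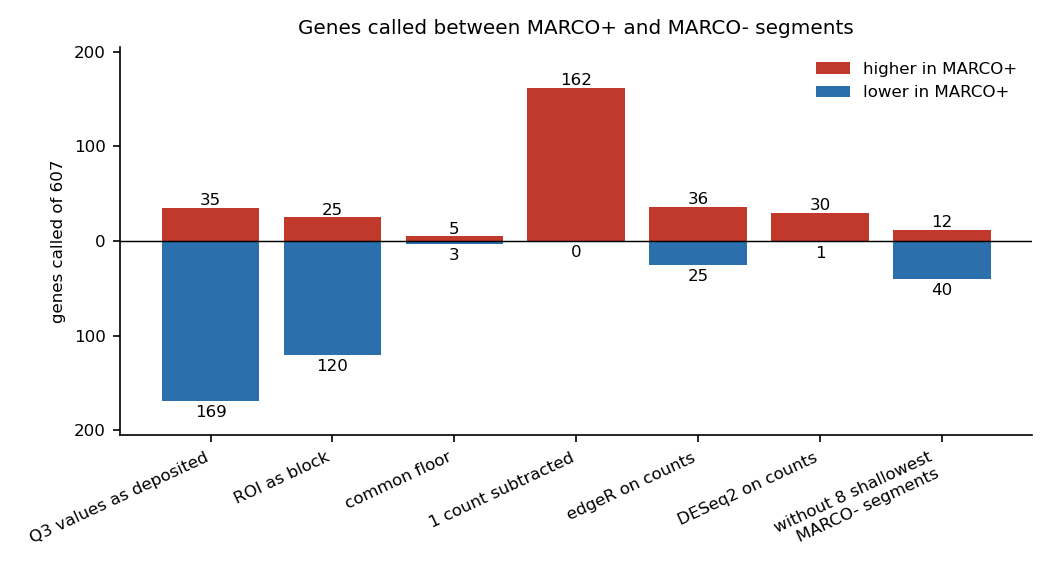
Number of genes, of 607, called higher (red, upward bars) or lower (blue, downward bars) in MARCO+ segments under 7 settings. The deposited values gave 35 and 169, the common floor 5 and 3, and the subtraction of 1 count 162 and 0.

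Fcna was the transcript with the largest difference after Marco. Its mean Q3-normalized value in MARCO- segments was 52.1, 68.7 and 47.4 for MARCOHi ROIs of livers 1, 3 and 4, and 84.6, 58.7, 70.7 and 55.6 for MARCOLo ROIs of livers 1 to 4. In MARCO+ segments of the same pairs it was 283.7, 324.7 and 281.8 for MARCOHi ROIs and 128.3, 157.4, 157.4 and 121.1 for MARCOLo ROIs. Every MARCO+ pair mean stood above every MARCO- pair mean. The log2 difference was 1.51, 1.41, 1.68 and 1.83 in livers 1 to 4, a mean of 1.61 (SE 0.20, 3.05-fold, limma adjusted p = 5.77e-09). In 21 of 22 ROIs with both types, Fcna was higher in the MARCO+ segment. The depth behind it was a median of 6.5 counts (1 to 34) in MARCO- and 121 (30 to 691) in MARCO+ segments. On the log2 scale Fcna averaged 7.56 ± 0.21 (SD over 4 livers) in MARCO+, 5.96 ± 0.19 in MARCO-, 4.51 ± 0.37 in HSC and 3.20 ± 0.31 in Other segments, and no neighbours in this order overlapped by their SD.

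Of the other macrophage genes, Sdc3 and Ctsd were also higher in MARCO+ segments. With Marco, whose protein defined the gate, and Fcna, 4 of 9 were called higher, 0 lower and 5 not called. Over all genes 5.77% were called higher and 27.8% lower. The list median was 0.26 against -0.21 over all genes. Sdc3, a heparan sulfate proteoglycan of the cell surface, differed by 0.95, 1.13, 0.42 and 0.49 in livers 1 to 4, a mean of 0.74 (SE 0.20, 1.68-fold, limma adjusted p = 0.0035). Ctsd, the lysosomal protease cathepsin D, differed by 0.43, 0.27, 0.89 and 0.80, a mean of 0.60 (SE 0.20, 1.51-fold, limma adjusted p = 0.0175). It was higher in 21 of 22 ROIs. The limma fit of differences within these ROIs, averaged per liver (named ROI as block), gave an adjusted p of 0.104 for Ctsd. Both were above 1 count in every MARCO- segment, with medians of 14 and 21.5 counts, and both lost the call with a common floor (adjusted p = 0.0832 and 0.124), although their differences of 0.74 and 0.60 were unchanged, all their values lying above that floor. The difference of Axl, a receptor for the uptake of apoptotic cells, was 0.26 (SE 0.20, adjusted p = 0.327), although at 55 and 8 median counts it was well measured in both types, with a mean level of 6.54 ± 0.07 in MARCO+, 6.28 ± 0.23 in MARCO-, 4.13 ± 0.30 in HSC and 3.31 ± 0.21 in Other segments. Id3, a transcriptional regulator needed by Kupffer cells, gave 0.02 (SE 0.20, adjusted p = 0.958), and Plac8, a gene of recruited monocytes, 0.09 (SE 0.21, adjusted p = 0.776). Timp2, an inhibitor of metalloproteinases, gave -0.24 (SE 0.20, adjusted p = 0.38) and Cd63, a tetraspanin of late endosomes, -0.42 (SE 0.21, adjusted p = 0.11). The livers did not share a sign for these 5 genes.

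**Figure D4:**
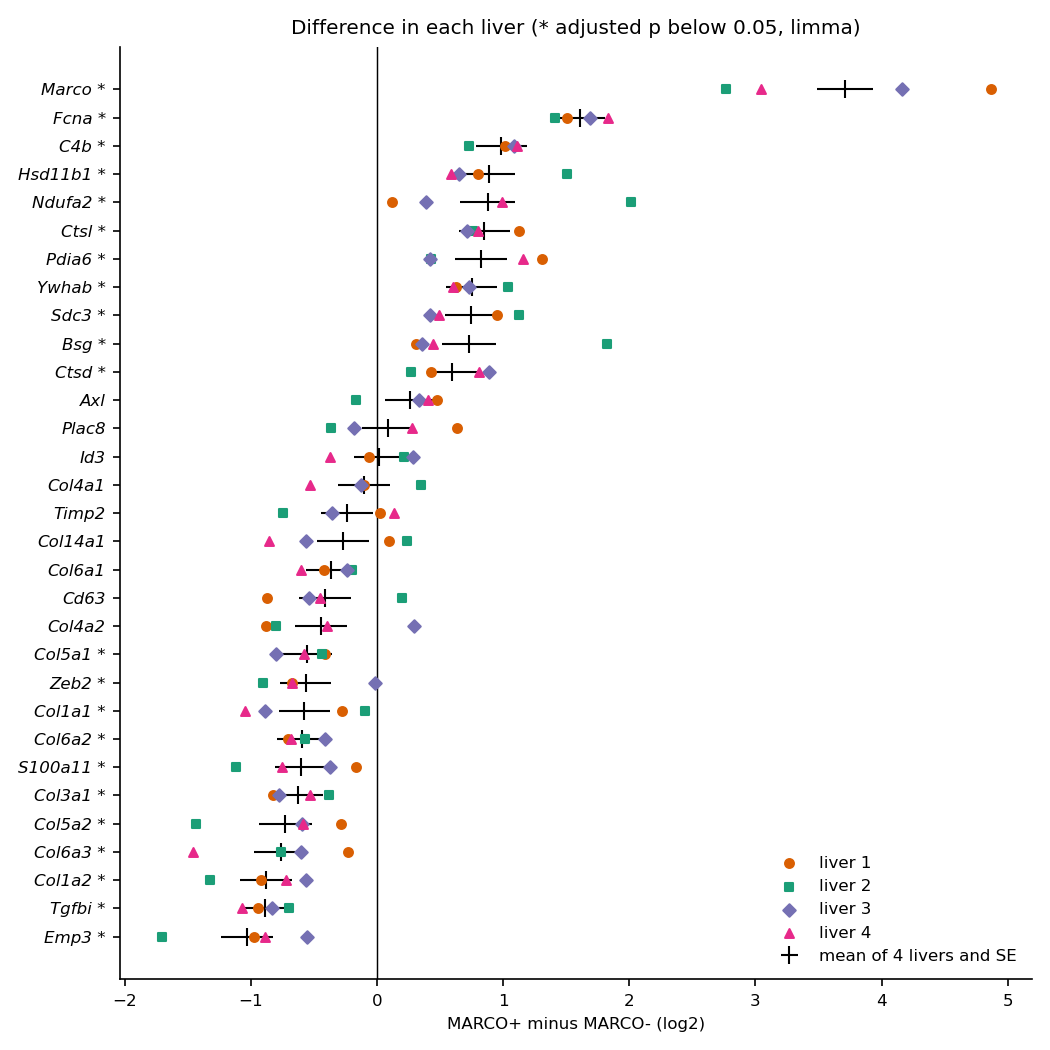
MARCO+ minus MARCO- log2 difference of each named gene in livers 1 to 4 (symbols), with the mean and its SE (black) and an asterisk where limma's adjusted p was below 0.05. Marco and Fcna stand to the right at 3.71 and 1.61, and collagens and Emp3 to the left.

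Among 17 genes of scavenging, phagocytosis and the lysosome, 5 were called higher (Marco, Ctsl, Ctsd, Ctsz and Lamp2), 4 lower and 8 not called, with a median of 0.09, against 5.77% higher, 27.8% lower and a median of -0.21 over all genes. Marco is among the 5 because its protein defined the gate. Ctsl, the cysteine protease cathepsin L, differed by 1.12, 0.76, 0.71 and 0.80 in livers 1 to 4, a mean of 0.85 (SE 0.20, 1.8-fold, limma adjusted p = 0.00112), and was higher in 21 of 22 ROIs. Ctsz, a lysosomal carboxypeptidase, differed by 0.55 (SE 0.20, adjusted p = 0.0323) and Lamp2, a protein of the lysosomal membrane, by 0.53 (SE 0.20, adjusted p = 0.0363, or 0.0526 with ROI as block), both with the same sign in every liver. The endocytic receptor gene Lrp1 gave 0.34 (adjusted p = 0.205) and Scarb2, which carries a lysosomal enzyme, 0.09 (adjusted p = 0.766). The 4 lower genes were Itgb3, Mfge8, Laptm4b and Anxa1. All 4 had a median of 1 count in MARCO- segments, at which 15 to 16 of 24 segments stood, and none was called with a common floor or by edgeR. These genes therefore have only a bound in MARCO- segments.

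Complement genes were the second list in which calls went upward. Of 11 genes of the lectin pathway and its regulators, 5 were higher in MARCO+ segments, among them Fcna, C4b, Serping1 and C1ra, 0 lower and 6 not called, with a median of 0.42. C4b, a complement component cleaved by the MASP proteases, differed by 1.02, 0.73, 1.08 and 1.11 in livers 1 to 4, a mean of 0.99 (SE 0.20, 1.98-fold, limma adjusted p = 0.000224). Whether its probe separates it from the near-identical C4a is not given in the sources used here. C1ra, a protease of the classical pathway, gave 0.61 (SE 0.20, adjusted p = 0.0146). Serping1, the C1 inhibitor, gave 0.67 (SE 0.22, adjusted p = 0.0159, or 0.0696 with ROI as block) but differed between livers at 0.11, 1.97, -0.20 and 0.79 (SD 0.96), a spread that the moderated SE does not carry. The collectins Colec10, Colec11 and Colec12 gave -0.06, -0.50 and -0.02 and the protease gene Masp1 0.39, and none of these was called. With each segment scaled to its total count, 4 of the 11 were called higher and 1 lower.

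The rest of the 10 highest genes were Hsd11b1, Ndufa2, Pdia6, Ywhab and Bsg. Hsd11b1, which reactivates glucocorticoids, differed by 0.80, 1.50, 0.65 and 0.59 in livers 1 to 4, a mean of 0.89 (SE 0.20, limma adjusted p = 0.000852). Pdia6, a disulfide isomerase of the endoplasmic reticulum, differed by 0.83 (SE 0.21, adjusted p = 0.00167) and Ywhab, a 14-3-3 protein gene, by 0.75 (SE 0.20, adjusted p = 0.00323). Ndufa2, a subunit of respiratory complex I, gave 0.12, 2.01, 0.39 and 0.99, and Bsg, a membrane glycoprotein, 0.31, 1.82, 0.35 and 0.44. For both, liver 2, with 2 MARCO- segments of 1094 and 1203 counts, stood highest.

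The levels of these genes in the Other segments fell in 2 patterns. Other segments, which hold the parenchyma, were on average above MARCO+ segments for 28 of the 35 genes higher in MARCO+, and in 4 of 4 livers for 26 of them, against 330 of 607 genes on average. C4b averaged 8.12 ± 0.21 in Other, 7.31 ± 0.28 in MARCO+ and 6.32 ± 0.31 in MARCO- segments (log2, SD over 4 livers). Hsd11b1 stood at 7.62 ± 0.13, 6.36 ± 0.27 and 5.47 ± 0.41, and Ctsl at 7.78 ± 0.17, 7.07 ± 0.17 and 6.22 ± 0.24. Other segments were below MARCO+ segments in 4 of 4 livers for 7 of the 35, among them Marco, Fcna, Sdc3, Ctsd and Ctsz. The part of transcripts from neighbouring cells in these calls was not tested.

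**Figure D5:**
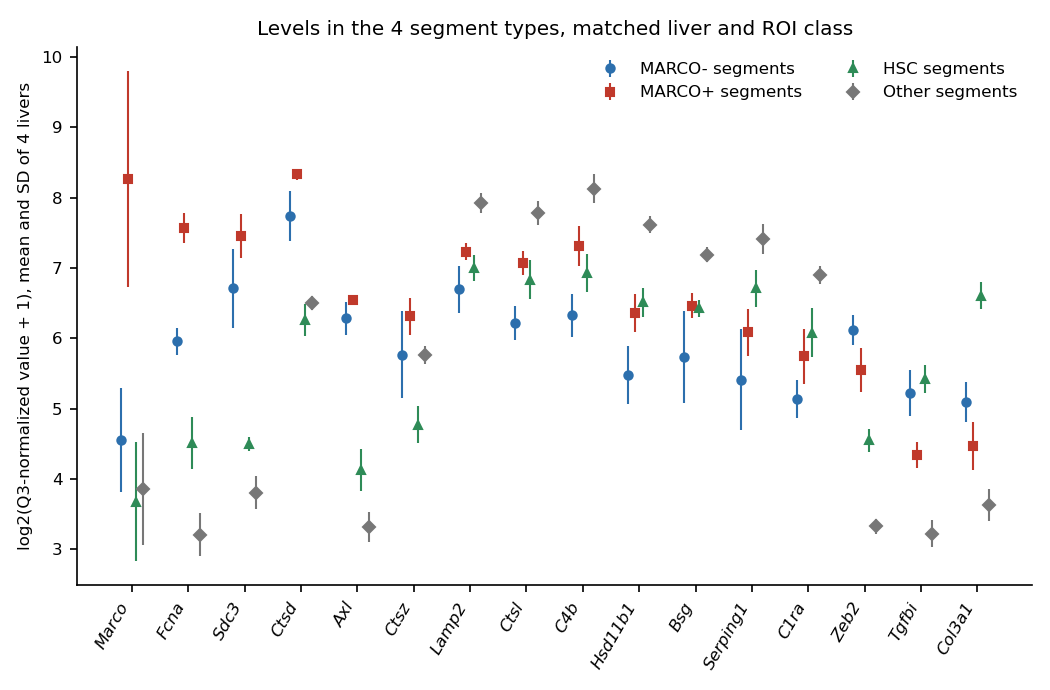
Mean log2(Q3-normalized value + 1) with SD over 4 livers of 16 genes in MARCO- (blue), MARCO+ (red), HSC (green) and Other (grey) segments of the same liver and ROI class. Marco, Fcna, Sdc3, Ctsd and Axl are highest in the macrophage segments, while C4b, Ctsl, Lamp2 and Hsd11b1 are highest in Other segments.

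Genes lower in MARCO+ segments with 3 or more median counts in MARCO- segments were Emp3, Tgfbi, Col3a1, S100a11, Zeb2 and Tmsb10, and all but Tmsb10 had the same sign in every liver. Tgfbi, a secreted matrix protein also made by macrophages, differed by -0.95, -0.70, -0.84 and -1.07 in livers 1 to 4, a mean of -0.89 (SE 0.20, limma adjusted p = 0.000716), with medians of 4.5 counts in MARCO- and 13 in MARCO+ segments. It averaged 5.22 ± 0.33 in MARCO-, 4.34 ± 0.18 in MARCO+, 5.42 ± 0.20 in HSC and 3.22 ± 0.20 in Other segments. Emp3, a membrane protein gene, differed by -0.98, -1.71, -0.56 and -0.89, a mean of -1.03 (SE 0.21, limma adjusted p = 0.000183), and was highest in MARCO- segments of the 4 types. It stood at 1 count in 7 of 24 MARCO- segments. Gsn, the actin-severing gelsolin, chosen after its values were seen because its median of 2.5 counts missed the limit, gave the lowest difference of all, with -0.98, -1.42, -1.66 and -1.68 and a mean of -1.43 (SE 0.20, limma adjusted p = 1.91e-07). These 3 genes were those called lower with a common floor. Of the count models, DESeq2 called Tgfbi alone lower and edgeR all 3. With 1 count subtracted their differences kept their sign (Tgfbi -0.55, Emp3 -0.60 and Gsn -0.99) but did not pass (adjusted p = 0.258, 0.235 and 0.0835). Zeb2, a transcription factor that maintains the identity of tissue macrophages, was well measured at 27 and 7.5 median counts and differed by -0.68, -0.90, -0.02 and -0.68, a mean of -0.57 (SE 0.20, adjusted p = 0.0253), with 6.12 ± 0.21 in MARCO-, 5.55 ± 0.31 in MARCO+ and 3.33 ± 0.11 in Other segments. It lost its call with a common floor (adjusted p = 0.173), which left the difference at -0.57, and by edgeR (-0.35, adjusted p = 0.176), and the fit with ROI as block gave 0.143. S100a11, a calcium-binding protein gene, gave -0.60 (SE 0.20, adjusted p = 0.0175, or 0.0827 with ROI as block), with 7 of 24 MARCO- segments at 1 count.

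Collagen genes were lower in MARCO+ segments as a list by the deposited values. Of 11 genes, 7 were called lower, 0 higher and 4 not called, and all 11 differences were below 0, with a median of -0.58, against 27.8% of all genes called lower and a median of -0.21. Col3a1, a chain of fibrillar collagen, differed by -0.83, -0.39, -0.78 and -0.53 in livers 1 to 4, a mean of -0.63 (SE 0.20, limma adjusted p = 0.0117), with medians of 4 counts in MARCO- and 13 in MARCO+ segments. It was the only collagen gene with 3 or more counts in MARCO- segments. Col1a1 gave -0.58 (SE 0.21, adjusted p = 0.0246, or 0.271 with ROI as block), with 12 of 24 MARCO- segments at 1 count, and Col1a2 -0.88 (SE 0.20, adjusted p = 0.000844), with 15 of 24. The other calls were Col5a1, Col5a2, Col6a2 and Col6a3 at -0.56, -0.73, -0.60 and -0.77, each with a median of 1 count, and Col5a1 lost its call with ROI as block (adjusted p = 0.0838). With a common floor, by edgeR and by DESeq2, 0 of 11 collagen genes were called, with list medians of -0.17, -0.45 and -0.48. With 1 count subtracted the list median was 0.86. The upward shift was not particular to collagens, as the median of all genes was 1.10, and the list stayed below it. The summed collagen value had a median of 168.5 units in MARCO- segments (113.0 to 352.0), 124.4 in MARCO+ (62.2 to 191.2), 389.2 in HSC (126.6 to 730.1) and 88.6 in Other segments (64.5 to 140.9). A median of 26.8% of the sum in MARCO- segments came from genes at 1 count, against 0% in MARCO+ segments.

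Stellate cell genes were also called in the downward direction. Of 35 genes, 18 were called lower in MARCO+ segments, 0 higher and 17 not called, with a median of -0.59, against 27.8% lower, 5.77% higher and a median of -0.21 over all genes, and none of the 18 reached 3 counts in MARCO- segments. Des, whose protein DESMIN was gated out of both types, gave -0.70 (SE 0.20, adjusted p = 0.00517) at a median of 1 count in MARCO- segments. The well-measured genes of the list were not called. Ecm1, an extracellular matrix protein gene, gave -0.19 (adjusted p = 0.52), Cxcl12, a chemokine gene, -0.48 (adjusted p = 0.0544), Steap4, a metalloreductase gene, -0.29 (adjusted p = 0.264) and Vim, an intermediate filament gene, -0.05 (adjusted p = 0.868). With a common floor 0 of 35 were called (median -0.13), and edgeR called 6 lower (median -0.31). The summed level of the 35 genes was 571.0 units in MARCO- segments (430.2 to 1043), 440.4 in MARCO+ (317.9 to 599.7), 932.1 in HSC (357.6 to 1532) and 376.0 in Other segments (278.2 to 457.1). Genes at 1 count made up a median of 24.4% of that sum in MARCO- segments and 0.58% in MARCO+ segments.

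The remaining lists held mostly downward calls, as did all genes, of which 27.8% were called lower with a median of -0.21. Of 14 matrix crosslinking and turnover genes 10 were called lower, of 14 chemokines, cytokines and growth factors 10, of 30 other matrix genes 14, of 13 pericyte and smooth muscle genes 7, of 30 contractile and cytoskeletal genes 10 and of 9 axon guidance genes 3. Only 1 of these calls, Tgfbi in the other matrix genes, had 3 or more counts in MARCO- segments. Upward calls in these lists were Epas1, an oxygen-sensing transcription factor gene, at 0.68 (SE 0.21, adjusted p = 0.00775, or 0.068 with ROI as block) and Cald1, an actin-binding protein gene, at 0.50 (SE 0.20, adjusted p = 0.0454, or 0.0938 with ROI as block). Of 8 stress protein genes, 1 was called higher and 3 lower, with a median of -0.26. Mt1, a metallothionein gene, was higher at 0.58 (SE 0.20, adjusted p = 0.0198). Cryab, Egr1 and Jun were lower at -0.84, -0.72 and -0.53, with medians of 1, 1 and 2 counts in MARCO- segments. Mmp2, a gelatinase gene, gave -0.47 (SE 0.20, adjusted p = 0.0668).

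Whether the difference itself changed between MARCOHi and MARCOLo ROIs was tested in livers 1, 3 and 4. No gene passed by limma (0 of 607, 0%), and 85 genes were at unadjusted p below 0.05. The log2 difference of Fcna was 2.42 in MARCOHi and 0.59 in MARCOLo ROIs of liver 1, 2.22 and 1.14 in liver 3, and 2.55 and 1.11 in liver 4. It was larger in MARCOHi ROIs in 3 of 3 livers, by a mean of 1.45 (SE 0.37, unadjusted p = 0.00186, adjusted p = 0.23 by limma). Every MARCOHi difference of liver 1 rests on 1 MARCO- segment of 1642 counts. MARCO- segments were shallower in MARCOHi ROIs, with median totals of 1642, 1199 and 1580 counts in livers 1, 3 and 4. Those of MARCOLo ROIs had 3703, 2360.5 and 1913, so the floor differed between the classes. MARCO+ segments of MARCOHi ROIs held more Fcna than those of MARCOLo ROIs in each liver, with means of 265.0 and 157.4 in liver 2, where no MARCO- segment of MARCOHi ROIs was measured. For Marco the difference averaged 4.12 in MARCOHi and 3.92 in MARCOLo ROIs (difference 0.20, SE 0.52). That of Sdc3 averaged 1.01 and 0.22, that of C4b 1.05 and 1.09, and that of Cd63 -1.22 and -0.02 (adjusted p = 0.344, 0.979 and 0.279).

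Between the livers labelled treated CCl4 and those labelled control, 0 of 607 genes (0%) differed in their MARCO+ minus MARCO- difference by limma, and 38 were at unadjusted p below 0.05. With 2 livers against 2, the test of 1 gene rests on the spread shared across genes. Marco had the lowest p, with 4.51 in the livers labelled treated CCl4 and 2.90 in those labelled control, a difference of 1.61 (SE 0.37, adjusted p = 0.674). MARCO+ segments of livers 1 and 3 held 1144 and 1382 Marco units in MARCOHi ROIs, against 242.4 and 284.3 in livers 2 and 4. In MARCOLo ROIs they held 373.1 and 533.7, against 94.6 and 94.4, so the labels did not overlap in either class. Marco was picked here for its p, and ROIs were chosen by MARCO staining. The share of all genes without overlap between the labels was not counted. The Fcna difference was 1.60 and 1.62, that of Ctsl 0.92 and 0.78, and that of Tgfbi -0.89 in both, with adjusted p = 0.993, 0.928 and 0.993.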

How the data were processed

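Segments were taken from formalin-fixed, paraffin-embedded sections of 4 mouse livers profiled on the GeoMx Digital Spatial Profiler, in which probes with photocleavable barcodes are released from one illuminated segment at a time and sequenced. The authors converted reads with bcl2fastq (2.20.0.422 in the submitters' processing notes, which also name mm10), removed PCR duplicates by molecular identifier, filtered segments and probes against negative probes, restricted genes to those of stellate cells and normalized to the upper quartile (Q3). The deposited values are thus a Q3-normalized signal. Whole counts were recovered by dividing each segment by its smallest step, and 96513 of 96513 values were whole at a relative tolerance of 1e-06.

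Values were averaged on the linear scale per liver, ROI class and segment type, a pseudocount of 1 was added and log2 taken. MARCO+ minus MARCO- was formed within liver and ROI class (7 pairs), averaged per liver, and tested by limma (3.58.1, R 4.3.3; eBayes, two-sided, Benjamini-Hochberg over 607 genes, threshold 0.05). The animal was the replicate, as segments of a liver share an animal. ROI pairing came from the labels, and 22 ROIs held both types. The alternative named ROI as block took differences within these ROIs, averaged them per liver and ROI class and then per liver. The livers were tested by the same limma fit, with no block term and not with the ROI as replicate. As alternatives, sums of the recovered counts of each pair went to edgeR (4.0.16) and DESeq2 (1.42.0), and a mixed model (lme4 1.1.37, lmerTest 3.1.3) was fitted to single segments. The limma fit of per-liver differences was run on simulated data. The check it had to pass was set at equal high depth, and not at the depths of these segments. No variation between livers was simulated, so the spread over livers was not tested. The genes named are the 10 highest and up to 10 lowest differences past the threshold with one sign in every liver, the lowest also with a median of 3 or more counts in MARCO- segments, besides Marco, macrophage genes and collagens. Gsn, Tmsb10 and other named genes were added after their values were seen, as members of lists or as exceptions. Members, lists and rules were chosen with earlier results of these data known. Segments that are in the labels' total but not in the table were not analysed here.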

Additional observations from a re-analysis of the deposited data

Results flagged for a closer look

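Values that stood apart from the others of their group were found in 6 of 89 groups of 4 to 10 values tested, a share near the 1 in 20 that chance gives. The Bsg difference of liver 2 was 1.82, and the nearest of the other livers was 0.44. The median difference of matrix crosslinking and turnover genes was -0.23 in liver 1, with -0.68 in the nearest liver. Marco reached 203.4 normalized units in 1 MARCO+ segment of liver 2 MARCOLo ROIs, against 93.1 in the next. The MARCO- segment of liver 3 MARCOHi ROIs described above held 482.4 units of Marco, against 78.2 in the next. Sdc3 was at 158.7 units in 1 MARCO+ segment of liver 3 MARCOHi ROIs, below 215.8 in the next. Ctsd was at 381.1 units in 1 MARCO+ segment of liver 1 MARCOHi ROIs, above 278.8 in the next.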

How the results depend on the processing

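The count of 204 genes called between the segment types moved with the setting. It was 20 when only the 405 genes with higher mean levels were tested, 8 with a common floor, 18 with MARCO+ segments no deeper than the deepest MARCO- segment (4 segments of 2 livers), 61 by edgeR, 31 by DESeq2, 15 in MARCOLo ROIs alone and 52 without the 8 MARCO- segments at an upper quartile of 2 counts (3 livers), an alternative chosen after seeing the data. Leaving out each liver gave 118 to 186 genes, the fit of within-ROI differences averaged per liver (ROI as block) 145 and MARCOHi ROIs alone 136 (3 livers). The 306 calls of the mixed model treat segments of a liver as separate observations, and those of edgeR and DESeq2 treat the ROI classes of a liver so. With 1 count subtracted, 162 genes were called, all higher, Marco moved to 5.06, and Col1a1 (1.15), Col1a2 (0.16), Col5a1 (1.30), Col5a2 (0.86), Col6a2 (1.80) and Col6a3 (1.05) changed sign, while the median of all genes was 1.10. Marco was 3.32 to 4.02 when each liver was left out. Between ROI classes the count of 0 became 1 with medians over segments and 3 with a trend in eBayes. Between treatment labels it became 1 with means of log2 values, with medians, and without the MARCO- segment highest in Marco (chosen after seeing the data), and leaving out each liver gave 0 to 21, the highest without liver 4. The cause was not tested. Single-gene values under the alternatives were compared only for the called genes that the naming rule picked, Marco left out. Of these values, 379 kept direction and call (or direction alone, where no adjusted p was given), 135 lost the call and 6 changed sign. The rest of the 204 calls are not in these numbers. Depth limits the comparison to the 187 genes with 3 or more counts in MARCO- segments.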
